A study of Mus musculus with 16 samples.

Results

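The genes described here are 10 that encode the inducible and constitutive chaperones of the cytosol, together with the factor that drives their transcription: Hsf1, Hspa1a, Hspa1b, Hspa8, Hsph1, Hsp90aa1, Hsp90ab1, Dnajb1, Bag3 and Hspb1. They were taken by symbol from a table of read counts for 40840 genes, all 10 were found in it, and all 10 passed the filter of at least 10 counts in total. The table held 16 RNA-seq libraries of mouse p53-/-; Myc hepatoblasts, a line of liver progenitor cells that the labels give as a hepatocellular carcinoma (HCC) model. Cells were treated with the kinase inhibitor sorafenib or with its vehicle DMSO, for 48 hours or for 7 days, and each of the 4 groups had 4 libraries. All groups, vehicle controls included, lack p53 and carry Myc, and all come from 1 cell line, so no library shows these genes in a liver cell with p53. The study asked how such cells adapt to sorafenib, and the comparisons here were sorafenib against DMSO at each time, the difference between these 2 responses, and DMSO at 7 days against DMSO at 48 hours.

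Heat shock proteins keep other proteins folded. HSP70 proteins bind exposed stretches of unfolded chains, HSP40 proteins such as DNAJB1 deliver the chains and start the ATP cycle, HSP110 and BAG proteins exchange the nucleotide, and HSP90 finishes the folding of kinases and steroid receptors. When unfolded proteins build up, the transcription factor HSF1 is released from chaperones, forms trimers and binds heat shock elements, which are inverted repeats of GAA and TTC in the promoters of these genes.

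The promoters of members were searched for the letters of heat shock elements, and those of Hspa1a and Hspa1b were compared. Each sequence below runs from 250 bases before the gene's start to 30 bases after it, was taken from RefSeq (table build GRCm38.p6) and was found exactly once in GRCm39, whose positions are given. Capitals mark every match to GAANNTTC or TTCNNGAA, the paired units of a heat shock element. The table had promoters for 6 of the 10 genes, and Hspa8, Hsp90aa1, Hsp90ab1 and Hsf1 had none listed.
Hspa1b, chr17:35178185-35178464, minus strand: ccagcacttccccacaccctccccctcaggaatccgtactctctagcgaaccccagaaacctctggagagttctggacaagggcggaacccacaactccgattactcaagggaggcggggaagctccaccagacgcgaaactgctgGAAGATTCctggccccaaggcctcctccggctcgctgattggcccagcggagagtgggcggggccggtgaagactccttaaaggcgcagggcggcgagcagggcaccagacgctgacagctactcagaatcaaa
Hspa1a, chr17:35191103-35191382, minus strand: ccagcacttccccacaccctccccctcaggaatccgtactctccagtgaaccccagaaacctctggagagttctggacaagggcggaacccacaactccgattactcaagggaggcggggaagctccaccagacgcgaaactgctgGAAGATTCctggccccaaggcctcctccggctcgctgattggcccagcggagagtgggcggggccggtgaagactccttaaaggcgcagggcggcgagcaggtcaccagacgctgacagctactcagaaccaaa
Hspb1, chr5:135916523-135916802, plus strand: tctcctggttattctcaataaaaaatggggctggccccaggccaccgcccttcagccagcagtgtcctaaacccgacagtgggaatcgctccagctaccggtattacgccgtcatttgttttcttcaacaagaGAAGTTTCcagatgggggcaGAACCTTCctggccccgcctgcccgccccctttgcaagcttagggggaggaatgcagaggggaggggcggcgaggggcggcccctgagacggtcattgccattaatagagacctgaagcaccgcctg
Hsph1, chr5:149559751-149560030, minus strand: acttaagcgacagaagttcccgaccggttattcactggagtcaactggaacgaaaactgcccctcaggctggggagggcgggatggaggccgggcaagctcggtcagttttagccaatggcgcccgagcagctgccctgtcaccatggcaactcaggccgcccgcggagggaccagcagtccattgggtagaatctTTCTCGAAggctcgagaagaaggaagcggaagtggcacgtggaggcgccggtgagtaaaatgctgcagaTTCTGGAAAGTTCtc
Hspa1b and Hspa1a each held 1 match, which began 104 bases before the start. Their 300-base promoters were 98.7% identical, with 4 differences counted from 1 at the 5′ end of the window and written from Hspa1b to Hspa1a (T44C, C47T, G249T and T276C), none of them in the match. Hspb1 held 2 matches. Hsph1 held 3, of which 2 overlapped to form a run of 3 alternating units, and a second listed start of the gene gave the same letters. Bag3 held 1 match after its start, and neither listed start of Dnajb1 had any. One or the other of the paired motifs, searched on both strands, was present in 15.1% of 32851 mouse promoters of this length, and such a run of 3 units in 0.603%. A match describes the letters only.

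Library depth ran from 16586254 to 30828427 counts. Levels are given as normalized counts (a gene's count scaled to a common library size with edgeR's TMM factors), and a change was called at a false discovery rate (FDR) under 0.05 in edgeR's quasi-likelihood test over 20444 genes. Nothing in the labels says that the replicates were separate cultures, so the tests measure only the spread between these libraries. Over well-measured genes DMSO 7 d replicate 4 lay far from the other libraries of its group, and the DMSO libraries at 48 hours also differed among themselves. One library stood apart along the genome. In Sorafenib 48 h replicate 2, counts dropped after a place on chromosome 14: relative to the other libraries of its group, the 2238 of 10368 well-measured genes that follow in genome order, through chromosome X, stood at 0.605-fold the genes before. The steps of the 12 libraries of the other 3 groups, found in the same way, ran from -0.01 to 0.01 on the log2 scale. Hsf1, Hspa1a, Hspa1b and Hsp90ab1 lie in that stretch, and their changes with sorafenib at each time are given with and without this library. Of the liver lineage markers, Alb and Hnf4a had at most 3 counts in every library, while Dlk1 and Krt19, also on that list, were abundant.

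At 48 hours the chaperones did not move together. Hsp90aa1, the inducible HSP90, rose 1.39-fold and Hsph1, the HSP110, rose 1.08-fold, while Hspa1b, Hspa8, Hsp90ab1, Dnajb1 and Bag3 fell, by the most for the inducible HSP70 Hspa1b, which went to 0.621 of its level in DMSO. Thus 7 of the 10 genes were called, 2 higher and 5 lower, against 54.6% of all tested genes (26.9% higher and 27.7% lower). Leaving out Sorafenib 48 h replicate 2 gave again 7 genes, 2 higher and 5 lower, against 57% (28.5% higher and 28.6% lower). With libraries scaled to their total counts 1 was higher and 6 were lower, against 55.6% of all genes called. That scaling put the median log2 fold change over all genes at -0.12. With TMM factors the median was -0.12 over the 10 genes and -0.05 over all genes. At 7 days, Hspb1 rose 1.44-fold, Hspa1a 1.37-fold, Hsp90aa1 1.25-fold and Dnajb1 1.09-fold, and Hsph1 fell to 0.922 of its level. That made 5 called genes, 4 higher and 1 lower, beside a background of 56.8% (28.9% higher and 27.9% lower), and the medians were 0.10 and 0.02. Without Sorafenib 48 h replicate 2, 7 genes were called at 7 days, 5 higher and 2 lower, Hsf1 and Hsp90ab1 being added, beside a background of 61.9% (31.2% higher and 30.7% lower). That library is in neither group compared at 7 days, but it enters the spread that the model shares over all groups. No called gene of the 10 reached a log2 fold change of 1 in either direction in any of the 4 comparisons.

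**Figure D1:**
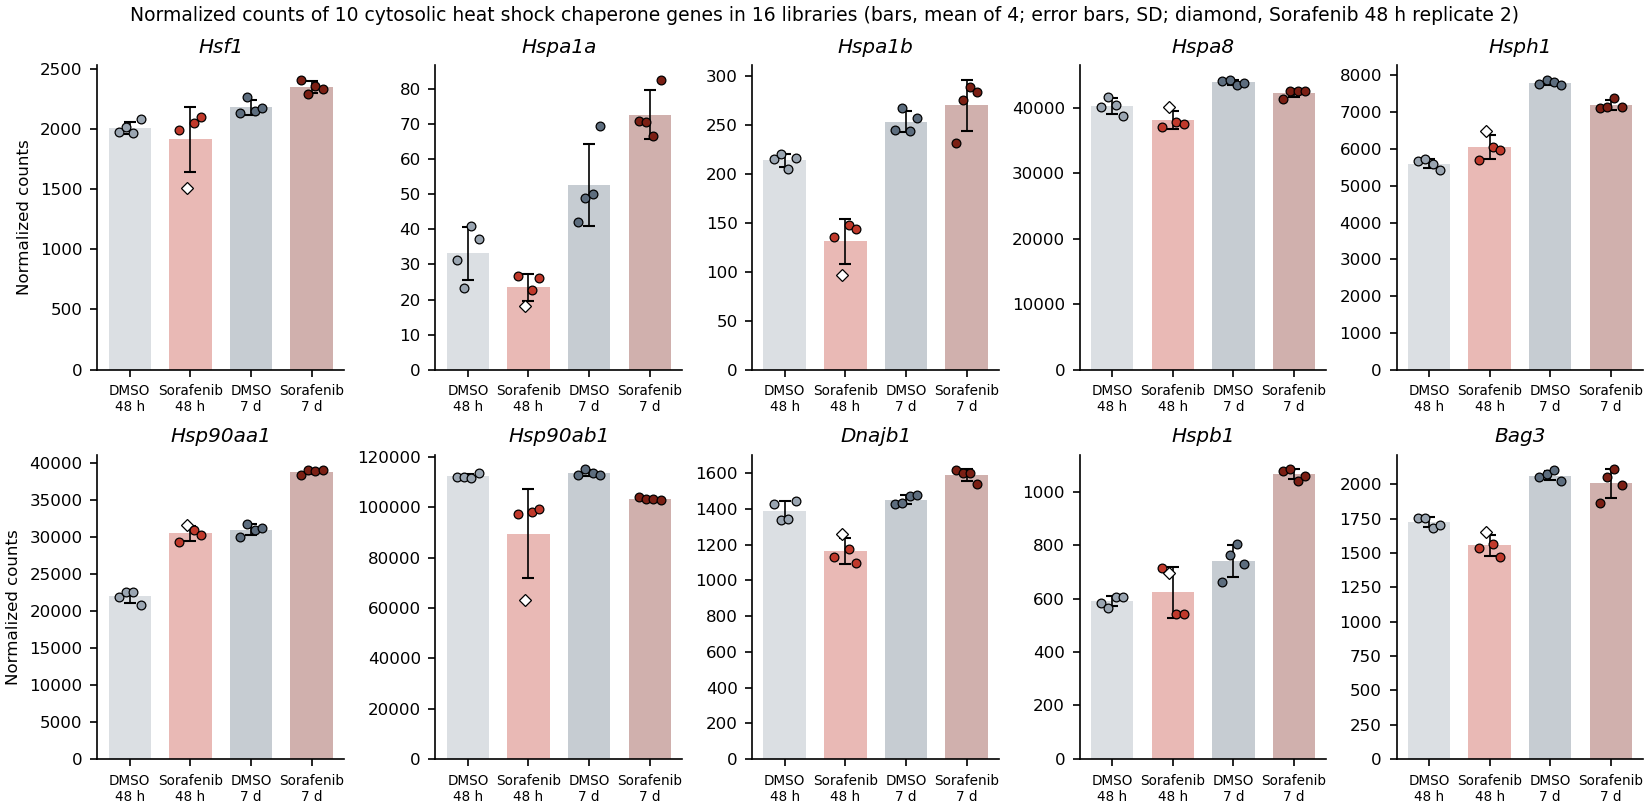
Normalized counts (y axis, linear, from 0, each gene on its own scale) of the 10 genes in the 4 groups (x axis). Points are single libraries, bars the mean of 4 and error bars the SD, and the white diamond is Sorafenib 48 h replicate 2, which lies lowest of its group for Hsf1, Hspa1a, Hspa1b and Hsp90ab1, while Hsp90aa1 is higher with sorafenib than with DMSO at both times.

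**Figure D2:**
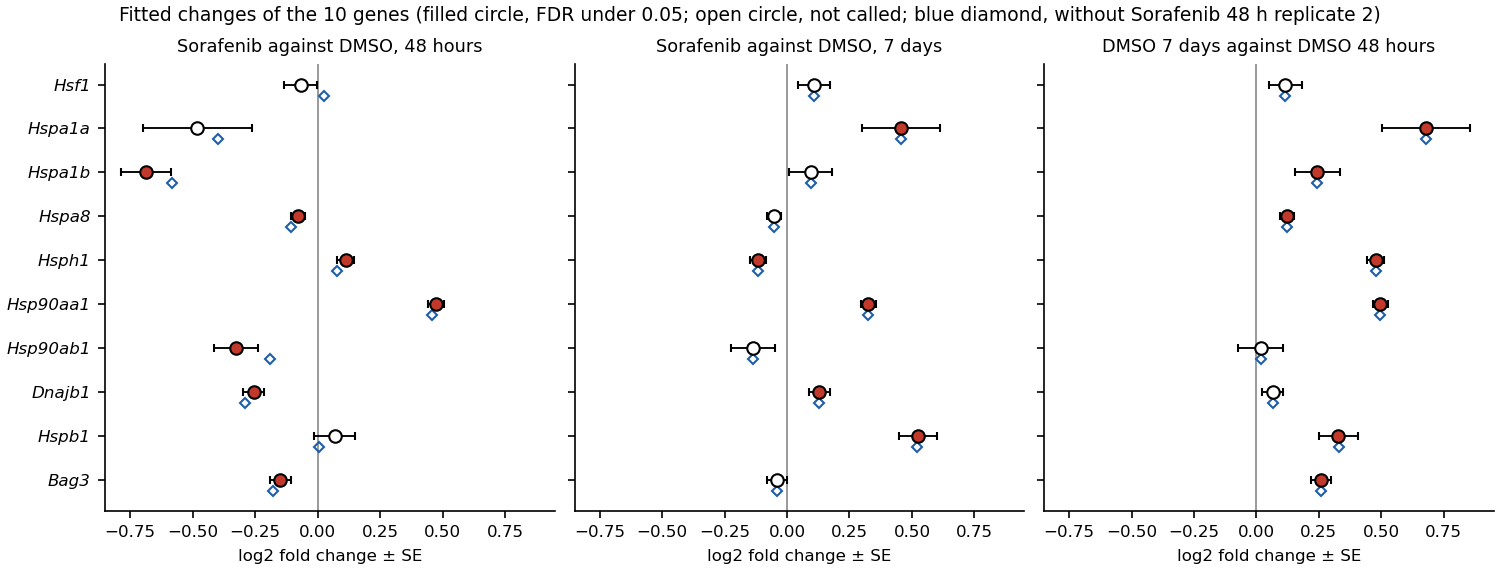
Log2 fold changes (x axis, ± SE from the model) of the 10 genes (y axis) for sorafenib at 48 hours, sorafenib at 7 days, and DMSO at 7 days against 48 hours. Filled circles passed an FDR of 0.05, open circles did not, and blue diamonds give the value without Sorafenib 48 h replicate 2. At 48 hours 5 genes lie lower and 2 higher among the filled circles, and between the DMSO groups all 7 filled circles lie higher.

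HSF1 is the regulator of the group. Hsf1 lies at chr15:76361558-76388138 (GRCm39, plus strand), and its exons overlap those of Bop1 and Dgat1 on the opposite strand. Its normalized counts at 48 hours were 1976, 2015, 1968 and 2078 with DMSO and 1988, 1512, 2049 and 2095 with sorafenib. The groups overlapped, and the single low value belongs to the library with the lowered stretch. The log2 fold change was -0.07 (SE 0.07, edgeR FDR 0.413), and 0.03 without that library (FDR 0.534). At 7 days the counts were 2132, 2262, 2144 and 2168 with DMSO and 2407, 2291, 2354 and 2332 with sorafenib. Every sorafenib library was above every DMSO library, by a log2 fold change of 0.11 that was not called with all 16 libraries (edgeR FDR 0.174) and was called without Sorafenib 48 h replicate 2 (FDR 0.00128). That library enters only the shared spread at 7 days. The change was also called with only the 8 libraries compared (FDR 0.00108). The counts say nothing of HSF1 protein or its activity.

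The HSP70 genes differed from one another. Hspa1a (chr17:35188166-35191132) and Hspa1b (chr17:35175412-35178214, both minus strand, GRCm39) are single-exon neighbours that encode nearly the same inducible HSP70. Of all 32-base windows of the transcripts, 63.5% of those of Hspa1a and 67.3% of those of Hspa1b were shared between them, so how the authors' counting split their reads is uncertain. Hspa1b had 215, 220.4, 205 and 216 normalized counts with DMSO at 48 hours and 136, 96.8, 148 and 144 with sorafenib. All 4 sorafenib libraries lay below all 4 DMSO libraries. The log2 fold change was -0.69 (SE 0.10, edgeR FDR 7.27e-06), and -0.58 without the library with the lowered stretch (FDR 7.25e-07). At 7 days Hspa1b had 245, 267, 244 and 258 counts with DMSO and 232, 275, 289 and 284 with sorafenib. One sorafenib library was below and 3 were above all DMSO libraries, and the log2 fold change of 0.09 was not called (edgeR FDR 0.373), nor was that of 0.10 without the same library (FDR 0.27).

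Hspa1a was detected at much lower counts, with 12 to 87 raw counts per library. Its normalized counts at 48 hours were 31.3, 23.4, 40.8 and 37.2 with DMSO and 26.7, 18.1, 22.8 and 26.1 with sorafenib, which overlapped, and the log2 fold change of -0.48 was not called (edgeR FDR 0.0718), although it was under 5 of the alternatives, such as leaving out DMSO 48 h replicate 2 (FDR 0.0192). Without the library with the lowered stretch it was -0.40 (FDR 0.141). At 7 days they were 42.2, 48.8, 50.1 and 69.6 with DMSO and 70.9, 70.7, 66.5 and 82.6 with sorafenib. The highest DMSO library reached into the sorafenib range, and the log2 fold change of 0.46 was called (SE 0.15, edgeR FDR 0.0168), a call that was lost without DMSO 7 d replicate 1 (FDR 0.0567) or without Sorafenib 7 d replicate 4 (FDR 0.0587) and kept, at 0.46, without the library with the lowered stretch (FDR 0.00703). With the counts of both genes summed, which removes the question of the split, the log2 fold change was -0.66 at 48 hours (SE 0.10, edgeR FDR 6.43e-06) and 0.16 at 7 days (SE 0.08, FDR 0.0957). Without the library with the lowered stretch, where both genes lie, the sum changed by -0.56 at 48 hours (SE 0.09, FDR 4.12e-07) and by 0.16 at 7 days (SE 0.07, FDR 0.0325). The inducible HSP70 transcripts as a pair were thus lower with sorafenib at 48 hours. At 7 days the fitted change was 0.16 with and without that library. That library is in neither group compared at 7 days and enters only the shared spread, on which the call depended.

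Hspa8 encodes HSC70, the constitutive HSP70 that handles new chains and uncoats clathrin vesicles. Its normalized counts at 48 hours were 40164, 41657, 40500.2 and 38786 with DMSO and 37058, 40116, 37760.3 and 37491 with sorafenib. Of the sorafenib libraries, 3 were below all DMSO libraries and 1 was not, with a log2 fold change of -0.08 (SE 0.03, edgeR FDR 0.0215), which was no longer called without DMSO 48 h replicate 2 (FDR 0.0814) or without the filter on low counts (FDR 0.182). At 7 days the mean was 43868 ± 375 with DMSO and 42288 ± 614 with sorafenib (SD, n = 4). The groups did not overlap, and the log2 fold change of -0.05 was not called (edgeR FDR 0.119). It was called with only the 8 libraries compared (-0.06, FDR 0.00856) and by limma voom, an alternative test (-0.05, FDR 0.00857). Of the 32-base windows of its transcript, 79.9% occur more than once in the genome.

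Hsph1 encodes HSP110, which frees HSP70 of its nucleotide and takes part in dissolving aggregates. None of its 32-base windows occurs more than once in the genome. At 48 hours it had 5661, 5717, 5598 and 5435 normalized counts with DMSO and 5712, 6498, 6046 and 5976 with sorafenib. The lowest sorafenib library lay just under the highest DMSO library, and the log2 fold change was 0.11 (SE 0.03, edgeR FDR 0.00786), a call lost without DMSO 48 h replicate 3 (FDR 0.0688), DMSO 48 h replicate 4 (FDR 0.104) or Sorafenib 48 h replicate 3 (FDR 0.0537), and with libraries scaled to total counts (FDR 0.387). At 7 days it had 7774, 7880.0, 7811 and 7736 counts with DMSO and 7117, 7133, 7381 and 7152 with sorafenib. Here all sorafenib libraries were below all DMSO libraries, with a log2 fold change of -0.12 (SE 0.03, edgeR FDR 0.00557). Hsph1 was thus called in opposite directions at the 2 times, and its response differed between them by -0.23 on the log2 scale (SE 0.05, edgeR FDR 0.000657, or 0.064 with total counts).

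The 2 cytosolic HSP90 genes moved apart. Hsp90aa1 (chr12:110656842-110669166, minus strand) encodes HSP90α, the stress-inducible form, and Hsp90ab1 (chr17:45878552-45891949, minus strand) encodes HSP90β, the constitutive form. Hsp90aa1 had 21899, 22605, 22614 and 20829 normalized counts with DMSO at 48 hours and 29266, 31664, 30902 and 30297 with sorafenib. Every sorafenib library exceeded every DMSO library, with a log2 fold change of 0.47 (SE 0.03, edgeR FDR 5.14e-11). At 7 days it had 30054, 31773, 30932 and 31218 counts with DMSO and 38334, 39098, 38963 and 39010.2 with sorafenib. The groups were again apart, with a log2 fold change of 0.33 (SE 0.03, edgeR FDR 1.47e-08). Hsp90aa1 was the only one of the 10 genes called higher at both times, and both calls held under every alternative except the added demand of a log2 fold change of at least 1.

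Hsp90ab1, the gene with the most counts of the 10, had 112065, 111910.0, 111667 and 113680.0 normalized counts with DMSO at 48 hours and 97363, 63150.2, 98332 and 99212 with sorafenib. All sorafenib libraries were below the DMSO libraries, and the lowest value belongs to the library with the lowered stretch. The log2 fold change was -0.33 (SE 0.09, edgeR FDR 0.00389), and -0.19 without that library (FDR 2.41e-10). At 7 days it had 112905, 115244, 113791 and 112661 counts with DMSO and 104039, 103353, 103267 and 103086 with sorafenib. The groups did not overlap. The log2 fold change of -0.14 was not called with all 16 libraries (edgeR FDR 0.207) and was called without Sorafenib 48 h replicate 2 (FDR 1.56e-07). That library enters only the shared spread at 7 days. The change was also called with only the 8 libraries compared (FDR 8.49e-10).

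The ratio of the 2 HSP90 genes within a library needs no scaling between libraries. It was chosen as a measure after the values had been seen. Per library at 48 hours, Hsp90aa1 had 0.195, 0.202, 0.203 and 0.183 counts for each count of Hsp90ab1 with DMSO, and 0.301, 0.501, 0.314 and 0.305 with sorafenib. The ratio was higher in all 4 sorafenib libraries (exact two-sided permutation test, p = 0.0286, the smallest that 4 against 4 can give). Without Sorafenib 48 h replicate 2, where Hsp90ab1 but not Hsp90aa1 lies in the lowered stretch, the sorafenib mean was 0.307 ± 0.00694 (SD, n = 3) against 0.196 ± 0.00897 with DMSO (n = 4), and the exact p of 0.0571 was the smallest that 4 against 3 allow. At 7 days the mean ratio was 0.273 ± 0.00488 with DMSO and 0.376 ± 0.0048 with sorafenib (SD, n = 4), again without overlap (exact permutation p = 0.0286). Against Hspa8, which lies outside the stretch, Hsp90aa1 went from a mean of 0.546 to 0.801 counts per count at 48 hours and from 0.707 to 0.919 at 7 days, with no overlap at either time. Of the 32-base windows of these transcripts, 71% for Hsp90aa1 and 19.3% for Hsp90ab1 occur more than once in the genome, and how reads that fit several places were counted is not given in the sources used here.

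**Figure D3:**
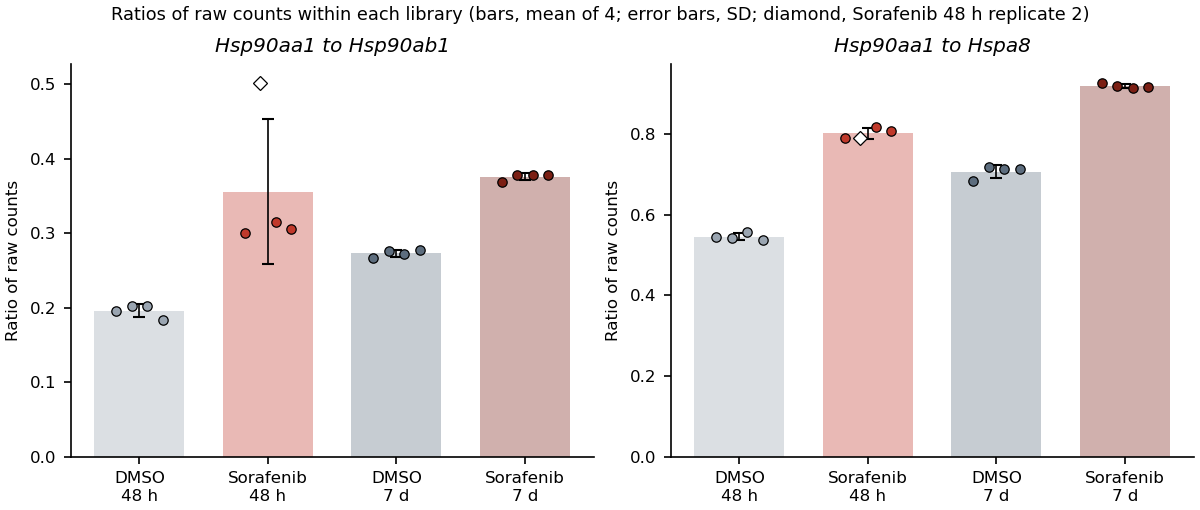
Number of raw counts of Hsp90aa1 for each count of Hsp90ab1 (left) and of Hspa8 (right) within each library (y axis, linear, from 0) in the 4 groups (x axis). Points are libraries, bars the mean of 4, error bars the SD and the white diamond Sorafenib 48 h replicate 2. Both ratios are higher in every sorafenib library than in every DMSO library of the same time.

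Dnajb1 encodes the HSP40 that works with the inducible HSP70. It had 1425, 1339, 1345 and 1447 normalized counts with DMSO at 48 hours and 1131, 1258, 1174 and 1095 with sorafenib. The groups were apart, with a log2 fold change of -0.26 (SE 0.04, edgeR FDR 3.38e-05). At 7 days it had 1427, 1431, 1474 and 1478 counts with DMSO and 1616, 1602, 1599 and 1538 with sorafenib, apart again but in the other direction (log2 fold change 0.13, SE 0.04, edgeR FDR 0.0119). The reversal was itself tested, with a difference of 0.38 between the responses (SE 0.06, edgeR FDR 3.00e-05). Dnajb1 lies on chromosome 8, outside the lowered stretch, and without that library its change at 48 hours was -0.29.

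Bag3 encodes the co-chaperone that joins HSP70 to small heat shock proteins and to selective autophagy. It had 1754, 1754, 1682 and 1707 normalized counts with DMSO at 48 hours and 1534, 1653, 1563 and 1471 with sorafenib. All sorafenib libraries were lower (log2 fold change -0.15, SE 0.04, edgeR FDR 0.00455). At 7 days the counts were 2051, 2076, 2103 and 2026 with DMSO and 1865, 2051, 2111 and 1996 with sorafenib, which overlapped, and the log2 fold change of -0.04 was not called (edgeR FDR 0.422).

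Hspb1 encodes HSP25, a small heat shock protein that holds unfolding chains without ATP. At 48 hours it had 584, 565, 607 and 604 normalized counts with DMSO and 716, 696, 542 and 541 with sorafenib. The sorafenib libraries split, 2 above and 2 below all DMSO libraries, and the log2 fold change of 0.07 was not called (edgeR FDR 0.512). At 7 days it had 661, 763, 802 and 729.9 counts with DMSO and 1075, 1084, 1041 and 1057 with sorafenib. All sorafenib libraries were higher, by the largest fold of the 10 genes at that time (log2 fold change 0.52, SE 0.07, edgeR FDR 4.53e-06). Of the 32-base windows of its transcript, 70.8% occur more than once in the genome.

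Normalized counts of the groups did not overlap for 5 of the 10 genes at 48 hours, against 48% of all tested genes, and for 7 at 7 days, against 56.8%. As a share of all counts in a library, the 10 genes together held 0.762% ± 0.0053 with DMSO at 48 hours and 0.661% ± 0.0507 with sorafenib (SD, n = 4), or 0.686% without the library with the lowered stretch. At 7 days the shares were 0.798% ± 0.0135 and 0.795% ± 0.00372, which overlapped (exact permutation p = 0.714). Most of this share is Hsp90ab1, Hspa8 and Hsp90aa1.

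The responses at the 2 times differed for 6 of the 10 genes, 4 with a higher and 2 with a lower log2 fold change at 7 days than at 48 hours, against 36.8% of all tested genes (15.5% higher and 21.3% lower). When Sorafenib 48 h replicate 2 was left out there were 7, 5 higher and 2 lower, against 43% (18.1% higher and 24.9% lower). With total counts there were 6, all higher, against 36.3% of all genes called. Hsp90aa1 and Hsph1 were not called then, and Hsf1 and Bag3 were. The median difference over all genes was 0.12 with total counts and 0.02 with TMM factors. Besides Hsph1 and Dnajb1, the difference was 0.94 for Hspa1a (SE 0.27, edgeR FDR 0.00901), 0.78 for Hspa1b (SE 0.13, FDR 8.91e-05), 0.46 for Hspb1 (SE 0.11, FDR 0.00245) and -0.15 for Hsp90aa1 (SE 0.04, FDR 0.0108). For the 2 inducible HSP70 genes it was 0.85 (Hspa1a, FDR 0.00896) and 0.68 (Hspa1b, FDR 6.40e-06) without Sorafenib 48 h replicate 2. The inducible HSP70 genes, their HSP40 partner and the small heat shock protein thus stood higher relative to DMSO at 7 days than at 48 hours, whereas the gain of Hsp90aa1 was smaller at 7 days. For Hsp90aa1 the difference was not called without DMSO 48 h replicate 4 (-0.09, FDR 0.0544) or with libraries scaled to total counts (-0.06, FDR 0.426). For Bag3 the difference of 0.11 was not called (FDR 0.156), and without Sorafenib 48 h replicate 2 it was 0.14 and was called (FDR 0.0166).

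These genes also differed between the 2 vehicle groups. Between DMSO at 48 hours and DMSO at 7 days, 7 of the 10 genes were called, all of them higher, against 49.4% of all tested genes called and 23.9% called higher, and the normalized counts of 8 genes did not overlap (50.8% of all genes). Without Sorafenib 48 h replicate 2, which is in neither group but enters the shared spread, 8 genes were called, all higher, against 55.2% (27.1% higher). The median log2 difference was 0.25 over the 10 genes and -0.01 over all genes. Hspa1a was higher by 0.68 (edgeR FDR 0.0032), Hsp90aa1 by 0.50 (FDR 5.71e-11), Hsph1 by 0.48 (FDR 3.41e-10), Hspb1 by 0.33 (FDR 0.0014), Bag3 by 0.26 (FDR 2.05e-05), Hspa1b by 0.24 (FDR 0.0276) and Hspa8 by 0.12 (FDR 0.00103). For Hspa1a, Hspa8, Hsp90aa1, Hsph1 and Bag3 the fitted difference between the vehicle groups was larger in size than that with sorafenib at either time, which was not tested. The call for Hspa1b was lost without DMSO 48 h replicate 1, 3 or 4 or DMSO 7 d replicate 2 or 4, with FDR from 0.0541 to 0.0846, and with total counts (FDR 0.0841), as was that for Hspa8 with total counts (FDR 0.136). The sorafenib and vehicle comparisons share DMSO libraries, and time in culture cannot be told apart from anything else that differed between the 2 harvests.

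Per kilobase of the canonical transcript, the level with DMSO at 48 hours was highest for Hsp90ab1, at 41558 ± 338 normalized counts per kilobase (SD, n = 4), then Hspa8 at 16824 ± 494 and Hsp90aa1 at 6229 ± 238. Hsph1 followed at 907 ± 19.7, Bag3 at 658 ± 13.6 and Hspb1 at 644 ± 21.6, the last 2 of which overlapped. Dnajb1 at 393 ± 15.5 and Hsf1 at 391 ± 9.76 overlapped too, and the inducible HSP70 genes were lowest, Hspa1b at 76.4 ± 2.28 and Hspa1a at 11.2 ± 2.56. The constitutive forms thus stood far above the inducible HSP70 forms. The share of 32-base windows that occur more than once in the genome ran from 0% for Hsph1 and Bag3 to 79.9% for Hspa8. How such reads were counted is not known, so the order between genes with unlike shares is uncertain. With sorafenib at 7 days, Hspb1 reached 1162 ± 21.1 per kilobase and overlapped Hsph1 at 1165 ± 20.1. Dividing by all exons of a gene joined, instead of by the canonical transcript, put Hsp90aa1 level with Hspa8 in DMSO at 48 hours (4777 ± 183 and 4640.2 ± 136).

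Genes whose log2 CPM (counts scaled to library size) followed those of 2 members most closely were taken from 10646 well-measured genes over the 16 libraries. For Hsph1 these were Abl2, Ykt6, Adrm1, Secisbp2 and Gpatch3, with Pearson r from 0.978 to 0.982. For Bag3 they were Supt6, Clspn, Cdc6, Fbxo30 and H13, with r from 0.950 to 0.962, and Hspa8 came at rank 10 with an r of 0.945. Among the members themselves, Hsp90aa1 and Hsp90ab1 had an r of -0.26. These values describe 16 libraries of 2 treatments and 2 times, so genes that differ between the same groups correlate.

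Other genes of the chaperone system were read from lists. Of 83 listed genes, 82 were in the table and 80 passed the filter. With sorafenib 60 of the 80 were called at 48 hours, 37 higher and 23 lower, beside 54.6% of all tested genes, and 51 at 7 days, 21 higher and 30 lower, beside 56.8%, with median log2 fold changes of 0.04 and -0.03. The calls went both ways within most lists, as they did among the 10 genes. With Sorafenib 48 h replicate 2 left out, 69 were called at 48 hours (41 higher and 28 lower), beside 57% of all tested genes. At 7 days 63 were called (26 higher and 37 lower), beside 61.9%. Of the listed genes, 19 lie in the lowered stretch.

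Other small heat shock protein genes changed in both directions. Hspb6, which is abundant in muscle, went from 224 ± 10.8 to 580.3 ± 37.6 normalized counts at 48 hours (SD, n = 4; log2 fold change 1.37, edgeR FDR 1.12e-13) and from 233 ± 13.5 to 812 at 7 days (1.80, FDR 6.16e-16). Hspb8, the partner of BAG3, rose from 34.4 ± 9.33 to 83.3 ± 13.9 at 48 hours (1.29, edgeR FDR 8.16e-07) and by 1.33 at 7 days. Its rise stands beside a fall of Bag3 at 48 hours. Hspb7 fell from 106 ± 5.78 to 20.7 at 7 days (-2.38, edgeR FDR 1.73e-10), and Cryab, which encodes αB-crystallin, was higher by 0.64 at 48 hours and lower by 0.55 at 7 days. Of 6 tested genes in this list, 4 were called higher and none lower at 48 hours, and 2 higher and 3 lower at 7 days. Leaving out Sorafenib 48 h replicate 2 added 1 lower gene at 48 hours, Hspb9 (-1.96, edgeR FDR 0.0022), named here after its values were seen.

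Among the other cytosolic HSP40 genes, 9 of 13 were called higher and 2 lower at 48 hours, and 6 higher and 4 lower at 7 days. Dnaja4 rose 2.31-fold at 48 hours (edgeR FDR 0.000369) and 6.49-fold at 7 days (FDR 1.24e-10), where it went from 13.1 ± 3.5 to 85.3 normalized counts, and Dnajb4 rose from 623 ± 19.1 to 1532 at 7 days (1.30, edgeR FDR 2.65e-15). Dnajb5 rose by 0.91 and 0.94 at the 2 times, and Dnajb14, an endoplasmic reticulum protein whose J domain faces the cytosol, by 0.93 at 48 hours. Dnajb1 fell at 48 hours while these relatives rose.

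In the HSP70 and HSP110 list, all 7 genes were called at 48 hours, 3 higher and 4 lower, and 2 were called higher and 2 lower at 7 days. The call for Hspa2 at 48 hours was lost with no filter (edgeR FDR 0.195) and with a replicate block (FDR 0.0682). It was also lost without DMSO 48 h replicate 2 (FDR 0.0771). Hspa4l, a relative of Hsph1, rose by 0.68 and 0.81 at the 2 times, from 1274 ± 41.6 to 2226 normalized counts at 7 days. Hspa12b fell by 1.18 at 48 hours and by 1.04 at 7 days, Hspa12a fell by 1.36 at 48 hours, and Hspa2 rose by 0.46 at 7 days. Hspa12a lies in the lowered stretch, and its change was -1.31 without Sorafenib 48 h replicate 2.

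Of 19 tested HSP90 co-chaperones, 8 were called higher and 6 lower at 48 hours, and 2 higher and 10 lower at 7 days, or 8 and 7, and 4 and 11, without Sorafenib 48 h replicate 2. Fkbp5, an immunophilin of steroid receptor complexes, fell by 0.53 at 48 hours and by 0.81 at 7 days, from 2424 ± 49.6 to 1381 normalized counts. Chordc1 rose by 0.43 and Cdc37l1 by 0.35 at 48 hours, while the phosphatase gene Ppp5c fell by 0.45 and Rpap3 by 0.37 at 7 days. Fkbp5 and Cdc37l1 lie in the lowered stretch, and without Sorafenib 48 h replicate 2 they changed by -0.37 and 0.47 at 48 hours. In the list of BAG and HSP70 co-factors, 3 of 8 were called higher and 3 lower at each time, or 3 and 5 at 7 days without Sorafenib 48 h replicate 2, with St13 and Stub1 added (named after their values were seen). Bag2, which inhibits the ubiquitin ligase CHIP, rose by 0.78 and 0.67 at the 2 times, Bag4 fell by 0.75 and Hspbp1 by 0.59 at 7 days, and at 48 hours Bag6 fell by 0.54 and Hspbp1 by 0.35. Bag6 also lies in the stretch, and its change at 48 hours was -0.42 without that replicate.

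The chaperonin CCT, which folds actin and tubulin, had 4 of 8 subunit genes called higher and 2 lower at 48 hours, and none higher and 3 lower at 7 days. The counts were 6 and 2, and none and 5, without Sorafenib 48 h replicate 2. Cct2 and Cct7 each rose by 0.26 and Cct5 fell by 0.29 at 48 hours, a fall of 0.15 without that library. With only the 8 libraries compared, the call for Cct5 at 48 hours was lost (edgeR FDR 0.0958). At 7 days Cct3 fell by 0.36, Cct5 by 0.29 and Cct6a by 0.08 (edgeR FDR 0.026). The call for Cct6a was lost with total counts (FDR 0.181), with no filter (FDR 0.106), with at least 10 counts in every library (FDR 0.077), and without DMSO 7 d replicate 2, 3 or 4 or Sorafenib 7 d replicate 3 or 4 (FDR from 0.0501 to 0.0732). Of 6 prefoldin genes, whose products hand chains to CCT, 1 was called higher and 2 lower at 48 hours, and none higher and 2 lower at 7 days, or 3 and 2, and 2 and 2, without that library. Pfdn4 rose by 0.55 and Pfdn5 fell by 0.50 at 48 hours, and Pfdn2 fell by 0.25 and 0.37 at the 2 times. Pfdn5 lies in the lowered stretch, and its change at 48 hours was -0.37 without that library.

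Among HSF family genes and their regulators, 1 of 6 was called higher and 2 lower at 48 hours, and 2 higher and 1 lower at 7 days. Ier5, which promotes HSF1 activity through dephosphorylation, rose by 0.63 and 0.78 at the 2 times. Hsbp1, a negative regulator of HSF1, fell by 0.32 and 0.12, Hsf2 fell by 0.16 at 48 hours, and Hsf4 rose by 0.47 at 7 days. The call for Hsf2 at 48 hours was lost with no filter (edgeR FDR 0.0823). Of 7 further genes known as HSF1 targets, 4 were called higher and 2 lower at each time. Serpinh1, the collagen chaperone HSP47, rose by 0.68 and 0.37, Zfand2a, a proteasome-associated gene, by 0.63 and 0.94, and Dedd2 fell by 1.07 and 0.59.

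**Figure D4:**
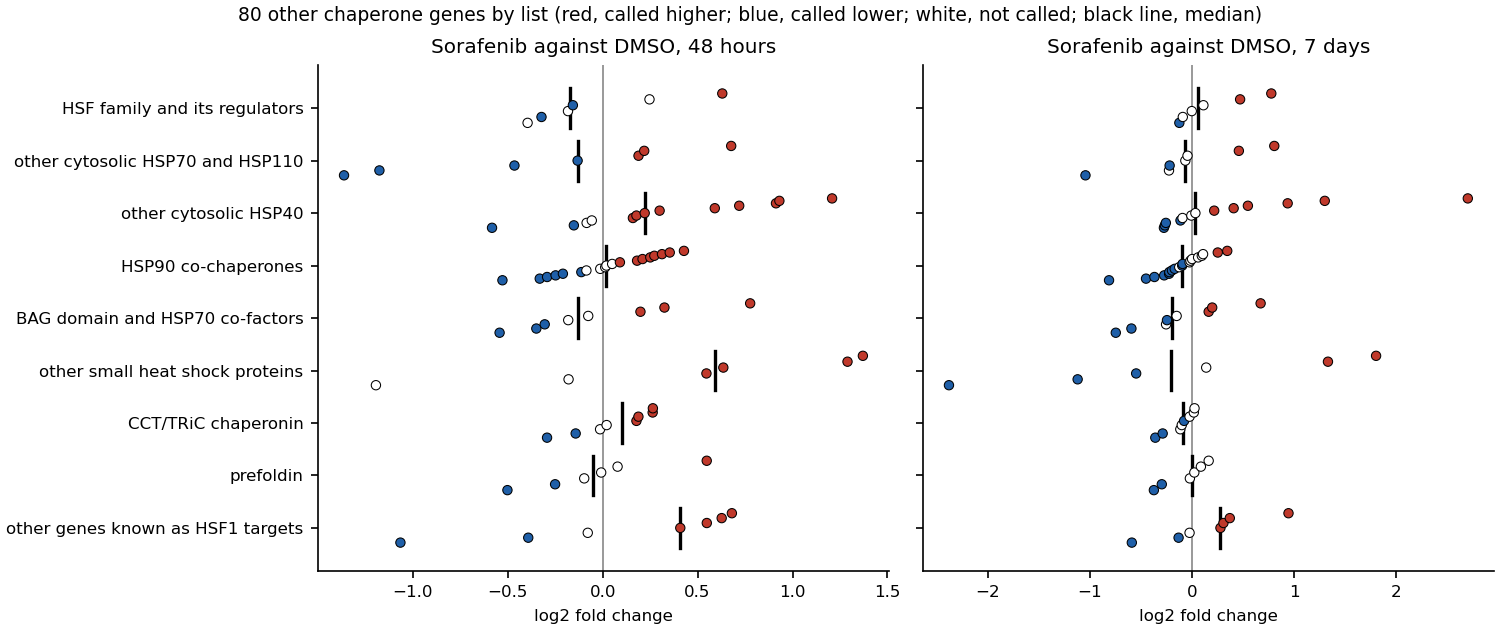
Log2 fold changes (x axis) of 80 other chaperone genes in 9 lists (y axis) with sorafenib at 48 hours and at 7 days. Each point is a gene, coloured red where it was called higher, blue where lower and white where not called, and the black line is the median of the list. Points lie on both sides of 0 in every list, and the farthest right at 7 days is Dnaja4, 6.49-fold higher.

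Markers of cell types moved with treatment too. The summed level of 10 hepatoblast and liver genes, most of it Dlk1, ran from 34811 to 36175 normalized counts with DMSO and from 12242 to 14015 with sorafenib at 48 hours, and from 18304 to 20167 and from 6039 to 6306 at 7 days. Sox9, on the same list, went the other way, from a mean of 213 to 664 at 48 hours and from 350 to 904 at 7 days. That of 6 fibroblast and stellate genes, mostly Acta2 and Col1a1, ran from 46738 to 49825 and from 133486 to 154791 at 48 hours, and from 66171 to 67940.4 and from 114450.0 to 119563 at 7 days, with Lrat at 3 counts or fewer. Pdgfrb of that list was lower with sorafenib, with means of 1668 and 977 at 48 hours and 718 and 469.8 at 7 days, as was Des (89.5 and 72.6, then 42.2 and 18.8). Pdgfrb and Acta2 lie in the stretch lowered in Sorafenib 48 h replicate 2, a library that is included in these values. The 4 endothelial genes summed to at most 228 and 4 leukocyte genes to at most 153 normalized counts, with Cdh5 and Adgre1 at 3 counts or fewer in every library. The part of these shifts in the chaperone values was not tested, and in bulk RNA fewer cells with a transcript and less of it in each cell cannot be told apart.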

How the data were processed

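RNA of mouse p53-/-; Myc hepatoblasts was measured in 16 RNA-seq libraries, 4 in each of 4 groups, grouped by the treatment and time in their labels. The authors used a stranded mRNA kit, and the deposited values are raw counts of reads per gene, not normalized. The submitters' processing notes name STAR 2.7.1a, featureCounts 2.0.6, Subread, DESeq2 1.40.2 and GRCm39; the strand setting, the annotation and the handling of multi-mapped reads are not given in the sources used here. No column belonged to another series.

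Of 40840 genes, 20396 with fewer than 10 counts in total were removed. The remaining 20444 were fitted in R 4.3.3 with edgeR 4.0.16 (TMM factors, quasi-likelihood test, 1 coefficient per group over all 16 libraries, no block), and p-values were adjusted over all of them by Benjamini-Hochberg. Tested on simulated data for the comparison at 48 hours (20094 genes), the model called 21 of 50 genes changed 1.2-fold, 48 of 50 changed 1.5-fold and all 50 changed 2-fold. The changed genes were all well-measured and no lowered stretch was simulated. These rates therefore do not apply to Hspa1a or to the other genes in the stretch. Depth ran from 16586254 to 30828427 counts, and 3 counts were 2.44 to 4.54 normalized counts. No replicates agreed within sampling noise (chi-square per gene at least 1.53). This value was 46.7 to 62.9 between DMSO 7 d replicate 4 and the others of its group, which had 1.84 to 2.96 among themselves. Between Sorafenib 48 h replicate 2 and its group it was 28.8 to 33.6, and between DMSO libraries at 48 hours 4.64 to 37.6. Alternatives were DESeq2 1.42.0, limma 3.58.1 voom with quality weights, other scalings and filters, an added fold threshold, the 8 libraries of a comparison alone, a replicate block, and each library left out in turn.

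Ratios were tested by exact two-sided permutation (scipy 1.17.1). Transcript lengths, overlaps and 32-base windows came from the canonical transcripts of GENCODE in GRCm39. These replaced the joined exons after the joined lengths had been seen to be inflated, and whether the authors used this annotation is not known. Named genes were all members, the 3 called genes of each list with the largest absolute log2 fold change at each time, and the 5 genes most correlated with Hsph1 and Bag3. The 10 genes and the lists were chosen with earlier results of these data known. One marker gene is not reported here.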

Additional observations from a re-analysis of the deposited data

Results flagged for a closer look

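In 3 of 40 sets of 4 libraries (10 genes in 4 groups) a single library lay far from the other 3, where chance gives about 1 in 20. Hsp90ab1 had 63150.2 normalized counts in Sorafenib 48 h replicate 2 against 97363 to 99212 in the others, and this is the library with the lowered stretch that holds the gene. Hspa8 had 41368 in Sorafenib 7 d replicate 1 against 42586 to 42604, and Hsph1 had 7381 in Sorafenib 7 d replicate 3 against 7117 to 7152. The latter 2 gaps are small beside the level of the gene.

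The response to sorafenib differed between the 2 times by edgeR's test of the difference (log2 fold change at 7 days minus that at 48 hours). It was higher at 7 days for Hspa1a (0.94), Hspa1b (0.78), Hspb1 (0.46) and Dnajb1 (0.38) and lower for Hsph1 (-0.23) and Hsp90aa1 (-0.15). Among 80 other chaperone genes, 45 differed, 16 higher and 29 lower, beside 36.8% of all tested genes (15.5% higher and 21.3% lower). Without Sorafenib 48 h replicate 2 there were 60, 20 higher and 40 lower, beside 43%.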

How the results depend on the processing

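Of 972 recomputed fold changes of the 10 genes, 924 kept their direction and their side of the threshold, 19 lost a call, 23 gained one and 6 changed sign. Where a gene also had to reach 1 on the log2 scale in either direction, 0 of the 10 genes were called in any of the 4 comparisons, beside 9.61% to 20.6% of all genes, and 6 other chaperone genes remained at 48 hours and 7 at 7 days. At 7 days 8 of the 10 were called by limma voom with quality weights, beside 63.4% of all genes, and also 8 with only the 8 libraries compared, beside 66.6%. Leaving out each library in turn gave 6 to 8 of the 10 genes at 48 hours, beside 52.4% to 57% of all genes. At 7 days it gave 4 to 7, beside 54.3% to 61.9%. For the difference between the times it gave 5 to 7, beside 34.9% to 43%, and between the DMSO groups 6 to 8, beside 46.4% to 55.2%. Other chaperone genes numbered 56 to 69 at 48 hours, beside 52.4% to 57% of all genes. At 7 days they numbered 48 to 63, beside 54.3% to 61.9%. With all 16 libraries, 48% of all tested genes had groups without overlap at 48 hours, and 56.8% at 7 days. Leaving out libraries gave 12 to 14 of 20 pairs of groups without overlap. It gave a log2 ratio of Hsp90aa1 to Hsp90ab1 of 0.65 to 0.93 against 0.86, whose exact permutation p of 0.0571 is the smallest that 4 against 3 allow.

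Signs changed in uncalled values near 0, and the cause was not tested. For Hsf1 at 48 hours (-0.07) voom gave 0.014, and leaving out libraries gave -0.15 to 0.025. For Hspb1 at 48 hours (0.07) voom gave -0.026, total counts -0.0027 and leaving out libraries -0.038 to 0.11. For Hsp90ab1 between the DMSO groups (0.02) total counts gave -0.042. At 7 days Cct7 (-0.02) was 0.0023 with at least 10 counts in every library, and Pfdn4 (-0.02) was 0.0027 with total counts, 0.0023 with no filter, 0.0052 with at least 10 counts in every library and -0.044 to 0.0035 with libraries left out.

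The deviations of same-numbered libraries correlated by -0.0074 on average at 48 hours and by 0.0752 at 7 days. For pairs with unlike numbers the averages were 0.0024 and -0.0242. At each time 1 library of 4 was closest to its own number. With 4 same-numbered pairs per time, a pairing can be neither shown nor excluded. With a replicate block within each time, 8 of the 10 genes were called at 48 hours, 5 at 7 days and 6 for the difference between the times. The shares of all genes were 52.1%, 53.9% and 34.2%. The block gives no value for the DMSO groups. Genes that share sequence with copies elsewhere, and the low counts of Hspa1a, limit what depth can show.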
